A study of Mus musculus with 4 samples.

Results

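The cells described here are Gpr17-high cells of the oligodendrocyte lineage, which were taken from the forebrain of 5-day-old mice. They were chosen by counts of unique molecular identifiers (UMIs, the tags that mark single captured transcript molecules). A cell belonged to the group if it held at least 5 UMIs of Gpr17, at least 1 UMI of Olig1 and Olig2 together, at most 1 UMI of the myelin genes Mag, Mobp and Mog together, and no UMI of the cycling genes Mki67 and Top2a. Of the 17623 cells with 2000 to 40000 UMIs, at least 1000 detected genes and at most 10% mitochondrial UMIs, 390 met the rule. Control replicate 1 held 86 of them, control replicate 2 held 51, mutant replicate 1 held 187 and mutant replicate 2 held 66, and values of the 4 libraries are given in this order throughout.

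All mice were C57BL/6 by their labels (C57BL/6 J in the study's methods) and carried the NestinCreERT2 and tdTomato transgenes. Control mice were NestinCreERT2/tdTomato/Chd8+/+ and mutant mice were NestinCreERT2/tdTomato/Chd8+/F, in which 1 allele of Chd8, a gene for a chromatin remodeler, is flanked by loxP sites. Mice of both groups received tamoxifen in the midfetal period, so the controls share the drug, the recombinase and the reporter. The recombinase is driven by the Nestin promoter, which is active in neural progenitor cells, and tdTomato-positive cells sorted at postnatal day 5 were progeny of the cells that had recombined. Each library was pooled from 3 mice, so differences from mouse to mouse are averaged within a library, and the library served as the replicate (n = 2 per genotype). The libraries contained 79328841, 46274374, 78211984 and 50616343 UMIs, and the Gpr17-high cells had median depths of 14357, 12089, 15405 and 11577.5 UMIs per cell.

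Oligodendrocytes, the myelinating glia of the central nervous system, arise from precursors (OPCs) that divide and migrate through the brain and depend on platelet-derived growth factor, which they sense through the receptor Pdgfra. When an OPC leaves the cell cycle and begins to differentiate, it passes through a short-lived committed stage marked by Gpr17, an orphan G protein-coupled receptor whose activity holds back terminal maturation. The receptor is turned off again as the cell makes the myelin proteins, and Bmp4, Enpp6 and Bcas1 are commonly used with Gpr17 to recognize this stage.

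Both libraries of replicate 2 stood apart from those of replicate 1. Mitochondrial UMIs made up 2.18%, 5.80%, 2.35% and 4.74% of the UMIs of the Gpr17-high cells, and the headers of the count matrices named a different version of the counting software for each replicate (7.0.0 for replicate 1 and 5.0.1 for replicate 2). Xist, the noncoding RNA that coats the inactive X chromosome in females, was at 0, 2063, 0.338 and 2231 counts per 1000000 UMIs (CPM) in these cells. The Y-linked genes Ddx3y, Eif2s3y, Kdm5d and Uty were at 0 in both libraries of replicate 2 and were detected in both libraries of replicate 1, with Uty at 85.4 and 90.9 CPM. In the resting precursors described next, Xist was at 1.33, 2498, 0 and 2943 CPM, and the 4 Y-linked genes were at 0 in control replicate 2 and at 0.827 to 2.48 CPM in mutant replicate 2. The levels in replicate 2 went against the study's statement that the sequenced cells came from male mice. Replicate number, software version and sex-linked expression cannot be told apart, and comparisons are given within replicates where they differ. The Gpr17-high cells are compared below with 868 resting precursors (Pdgfra at least 5 UMIs, Gpr17 at most 1 UMI, the other limits alike) and with 193 Mag-high oligodendrocytes (Mag, Mobp and Mog at least 5 UMIs together), of which 144 also held at least 5 UMIs of Gpr17.

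The usual name for cells chosen in this way, committed oligodendrocyte precursors, was checked against its markers. Gpr17 itself, which chose the cells and is given as a description, was at 639, 863, 789 and 647 CPM in the Gpr17-high cells. Its median was 8 UMIs per cell (quartiles 6 and 13, highest 58), with library medians of 7, 8, 9 and 6 UMIs. The gate genes Mag and Mog were at means of 2.83 and 0.759 CPM and Mobp was at 0 in all 4 libraries. Olig2, which the rule also used, was at 437 CPM. Sox10, a factor of the whole oligodendrocyte lineage that the rule did not use, was at 337 ± 41.1 CPM (SD, n = 4 libraries), although the sample label reads neuronal cells. Bcas1, a protein of early myelinating oligodendrocytes, was at 2100, 1313, 2127 and 1026 CPM, with the libraries of replicate 1 higher. Bmp4, a secreted signalling protein, was at 247, 247, 394 and 198 CPM. Enpp6, a choline phosphodiesterase of newly forming oligodendrocytes, was at 242, 213, 347 and 211 CPM. The remaining 3 markers were therefore present in every library, but only part of the cells carried them: 180 of the 390 cells held at least 3 UMIs of Pdgfra, and most of these had neither Bmp4 nor Enpp6. For that reason the group is called Gpr17-high cells here and not committed precursors.

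**Figure D1:**
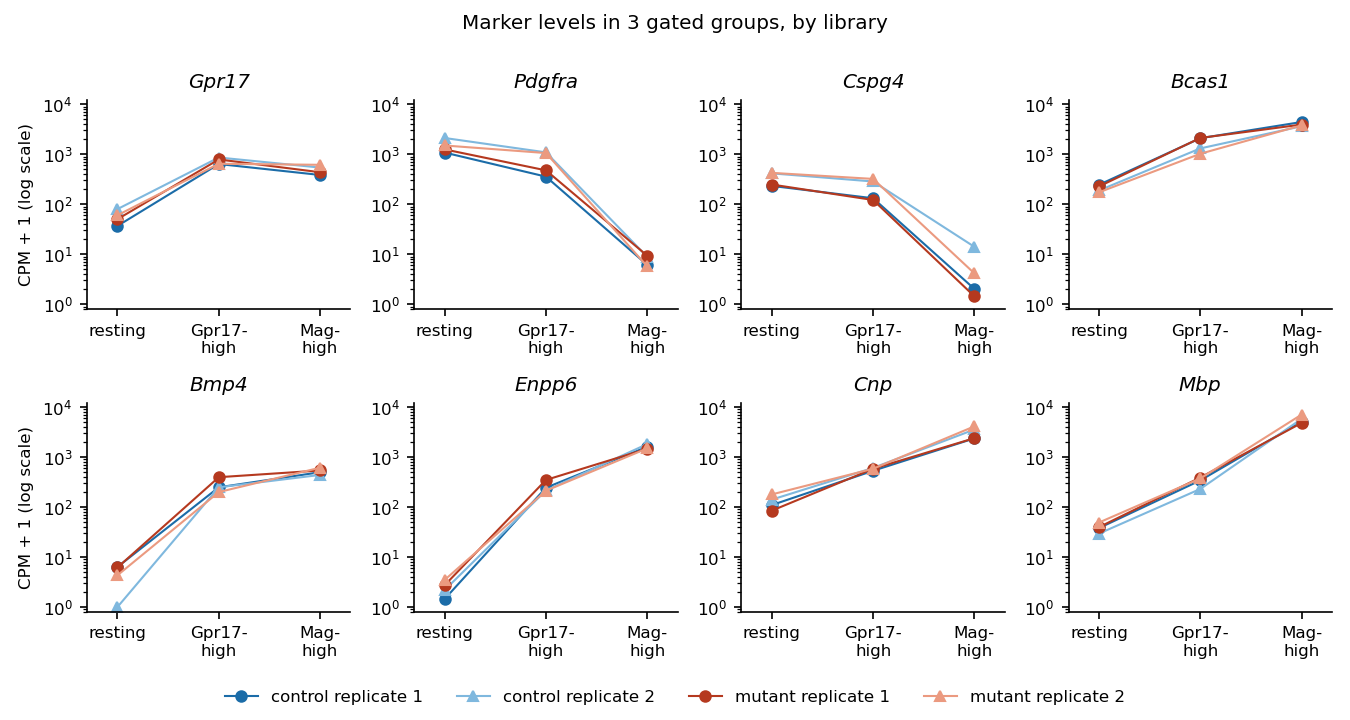
Level (CPM + 1, log scale) of 8 marker genes in resting precursors, Gpr17-high cells and Mag-high oligodendrocytes, with 1 line per library. Gpr17 and Pdgfra chose the groups. Bmp4 and Enpp6 sit at most at 5.33 CPM in resting precursors and at 198 CPM or more in Gpr17-high cells, and the 4 libraries show the same order of groups for every gene, with Gpr17 highest in the middle group.

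The limits of the rule cut through a continuous range. Just outside it, 308 cells with 3 or 4 UMIs of Gpr17 had 1253 CPM of Pdgfra, 56.2 CPM of Bmp4, 54.4 CPM of Enpp6 and 536 CPM of Bcas1. Just inside, 139 cells with 5 or 6 UMIs had 1229 CPM of Pdgfra, 124 CPM of Bmp4, 103 CPM of Enpp6 and 959 CPM of Bcas1. The 152 cells with at least 10 UMIs had 188 CPM of Pdgfra, 486 CPM of Bmp4, 472 CPM of Enpp6 and 2590 CPM of Bcas1. On the myelin side, the 23 members with 1 UMI of the myelin genes had 894 CPM of Enpp6 and 1157 CPM of Mbp, against 872 CPM and 1652 CPM in the 19 cells with 2 or 3 such UMIs that the rule left out. A further 244 cells met the Gpr17 limit but held Mki67 or Top2a, and with 1489 CPM of Pdgfra, 26.1 CPM of Enpp6 and 422 CPM of Bcas1 they were nearer to the low end of Gpr17.

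Bmp4, Enpp6 and the antisense transcript 9630013A20Rik were all higher in Gpr17-high cells than in resting precursors. Bmp4 lies at chr14:46383520-46390669 on the minus strand, Enpp6 at chr8:46986887-47096762 on the plus strand and 9630013A20Rik at chr14:84458639-84476424 on the minus strand (GRCm38). Their promoters are shown because these genes separate the Gpr17-high cells from resting precursors in all 4 libraries. RefSeq windows (GRCm38.p6) were available for 8 of 13 genes asked for. Each sequence holds the 250 bases before the annotated start, 5′ to 3′ on the strand of the gene, with capitals for an E box (CANNTG, the letters bound by bHLH factors such as the Olig proteins) or a SOX-type match (ACAANG on either strand, the letters bound by Sox factors).
Enpp6, chr8:46986637-46986886: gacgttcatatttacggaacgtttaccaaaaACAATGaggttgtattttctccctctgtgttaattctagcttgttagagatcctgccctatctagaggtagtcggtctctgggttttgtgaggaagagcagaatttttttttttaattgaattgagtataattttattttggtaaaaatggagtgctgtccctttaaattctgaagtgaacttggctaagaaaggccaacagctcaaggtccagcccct
Bmp4, chr14:46390670-46390919: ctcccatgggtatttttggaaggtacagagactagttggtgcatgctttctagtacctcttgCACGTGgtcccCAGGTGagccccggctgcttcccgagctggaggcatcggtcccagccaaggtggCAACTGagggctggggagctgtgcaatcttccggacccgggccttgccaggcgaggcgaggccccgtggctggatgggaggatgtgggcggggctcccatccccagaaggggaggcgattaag
9630013A20Rik, chr14:84476425-84476674: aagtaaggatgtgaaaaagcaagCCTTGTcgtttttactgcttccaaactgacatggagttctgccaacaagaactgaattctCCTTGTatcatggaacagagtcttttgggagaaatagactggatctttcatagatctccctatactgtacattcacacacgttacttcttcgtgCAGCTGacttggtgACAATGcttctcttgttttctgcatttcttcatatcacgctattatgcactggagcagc
The Enpp6 window held 1 SOX-type match, which began 219 bases before the start, and no E box. The Bmp4 window held 3 E boxes, beginning 188, 177 and 123 bases before the start, and no SOX-type match. The 9630013A20Rik window held 1 E box at 73 bases and 3 SOX-type matches at 227, 167 and 59 bases before the start. These letters are common: of 32851 promoter windows of this length, 66.2% held an E box and 36.3% a SOX-type match. The TCF-type letters ATCAAAG, on either strand, were in 3.21% of all windows and in none of these 3. A match describes the letters and not a bound site.

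Against resting precursors, Gpr17-high cells had higher levels of 13 of 21 tested genes of the committed stage and of 8 of 14 tested myelin genes. Egfr, 5 of 11 tested cell cycle genes and 7 of 9 tested stress and immediate early genes were lower. Most OPC markers differed by less than 2-fold. Counts were summed per library and group and edgeR's quasi-likelihood test was fitted with the library as a block. Of 11163 genes tested, 570 (5.11%) passed an adjusted p of 0.05 with at least a 2-fold difference, 289 (2.59%) higher and 281 (2.52%) lower, and the median difference of all genes was -0.02 on the log2 scale. The even split depended on the cells summed, with 434 higher and 877 lower genes when at least 10 UMIs of Gpr17 were required and 340 and 649 without cells holding markers of another cell type, and without the library block it was 101 and 32. The genes of the gates were left out of the calls. The genes tested were not used by the rule, but they were counted in the cells that it chose, so a gene that varies with Gpr17 or Pdgfra from cell to cell had to differ here.

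Among the markers of the label, Enpp6 was at 0.445, 1.18, 1.73 and 2.48 CPM in resting precursors (11 UMIs in all) against 242, 213, 347 and 211 CPM in Gpr17-high cells, a log2 difference of 6.78 (SE 0.20, adjusted p = 2.82e-15 by edgeR). The 2 groups of libraries were far apart and did not overlap. For Bmp4 the resting values were 5.33, 0, 5.18 and 3.31 CPM (34 UMIs in all), and the log2 difference was 5.81 (SE 0.19). Bcas1 was already detected in resting precursors, at 245, 188, 227 and 173 CPM, and its log2 difference was 2.99 (SE 0.10). All 3 were higher in 4 of 4 libraries.

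These differences were also seen in the share of cells with at least 1 UMI, where depth has to be considered. Bmp4 was found in 56.2% of Gpr17-high cells, 2.3% of resting precursors and 95.3% of Mag-high oligodendrocytes, and Enpp6 in 40.8%, 1.27% and 99.0%. GABAergic neurons of the same libraries, which should lack both genes, gave background shares of 1.05% for Bmp4 and 0.922% for Enpp6, so the resting precursors were near background for both. Median depths were 13969.5 UMIs for Gpr17-high cells, 8525.5 for resting precursors, 23230 for Mag-high oligodendrocytes and 7103 for the neurons. With every cell thinned to 4000 UMIs, which left out 10, 173, 1 and 132 cells of these groups, the shares were 46.8%, 1.29%, 81.8% and 1.01% for Bmp4 and 35.3%, 0.576%, 95.3% and 0.577% for Enpp6.

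Of the 21 tested genes of the committed stage (a list of 22 that includes the 3 markers above), 13 were higher, none was lower and the list median was 1.80. Neu4, a sialidase, was at 10.2, 4.73, 11.5 and 3.31 CPM in resting precursors and at 130, 73.2, 154 and 52.8 CPM in Gpr17-high cells (log2 difference 3.62, SE 0.15). Its levels were lower in the replicate 2 libraries of both groups, but the groups did not overlap. The antisense transcript 9630013A20Rik rose by 3.32 (SE 0.14), and, since it is annotated on the strand opposite to other transcripts and the strand setting of the counting was not given in the sources used here, reads of a partner gene cannot be told apart. Epb41l2, a protein that links the membrane to the cytoskeleton, rose by 3.28, Lims2, an adaptor of integrin complexes, by 2.53, the Myc family member Mycl by 2.49, the Src family kinase Fyn by 1.98, the adhesion protein Tns3 by 1.80 and Itpr2, a calcium release channel of the endoplasmic reticulum, by 1.33. The call of Tns3 was lost without the library block, although its difference was at least 1.42 in every alternative. Casr was the member that did not pass the filter on low counts.

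The myelin genes gave a mixed picture of early and late members. Of 14 tested, 8 were higher and none lower, with a median of 1.41. Mbp, the basic protein that holds the myelin layers together, was at 36.9, 28.4, 38.5 and 48.0 CPM in resting precursors and at 340, 229, 388 and 372 CPM in Gpr17-high cells (log2 difference 3.16, SE 0.11). The phosphodiesterase Cnp was at 108, 140, 83.7 and 178 CPM and at 531, 605, 581 and 583 CPM (2.28, SE 0.13). For both genes the groups of libraries were separate. Fa2h, which makes hydroxylated fatty acids for myelin lipids, rose by 2.85, the deacetylase Sirt2 by 2.61, the tight junction protein Cldn11 by 3.05, the adhesion protein Nfasc by 1.55 and Ugt8a, the galactolipid synthase, by 1.28. The 6 genes that did not pass the filter on low counts were Aspa, Ermn, Gpr37, Mal, Opalin and Trf. Opalin and Ermn, markers of mature oligodendrocytes, were each at 1 UMI in all Gpr17-high cells together.

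Among 22 lineage transcription factors tested, 5 were higher and none lower (median 0.13). Myrf, the factor that switches on myelin genes, was at 7.11, 3.55, 6.04 and 8.27 CPM in resting precursors and at 70.1, 62.5, 68.6 and 43.4 CPM in Gpr17-high cells (3.12, SE 0.21). Tcf7l2, a Wnt pathway factor required for oligodendrocyte differentiation, was at 115, 56.8, 108 and 76.1 CPM and at 404, 185, 437 and 190 CPM (1.80, SE 0.11). Its call was lost without the library block, although its difference was at least 1.46 in every alternative. Nkx2-2, a homeodomain factor of differentiating precursors, rose by 1.71 and Zeb2 by 1.57. The zinc finger gene St18 gave a log2 difference of 5.33 (SE 0.27), but its level in Gpr17-high cells was 213, 10.7, 266 and 5.86 CPM, so both libraries of replicate 2 were far below both libraries of replicate 1, with resting values of 0.445, 1.18, 6.90 and 0.827 CPM. Sox10, which marks the whole lineage, differed by 0.47 (SE 0.09, adjusted p = 0.000477 by edgeR), below the 2-fold limit.

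Another 2 genes of the 12 largest rises were outside the lists. The long noncoding RNA 9530059O14Rik was at 2.22, 0, 2.88 and 0 CPM in resting precursors and at 286, 74.7, 392 and 46.9 CPM in Gpr17-high cells (6.48, SE 0.20). Epcam, an adhesion protein best known from epithelia, was at 1.33, 1.18, 0.288 and 0 CPM and at 77.0, 71.7, 94.0 and 30.5 CPM (5.42, SE 0.31). Neither overlapped between the groups, and both were lowest in mutant replicate 2.

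Most markers of OPCs differed from resting precursors by less than 2-fold when all Gpr17-high cells were summed. Of 17 tested, none was higher and 1 was lower, and the median was -0.22. Of all genes tested, 2.59% were higher and 2.52% lower. The NG2 proteoglycan Cspg4 was at 232, 415, 248 and 425 CPM in resting precursors and at 131, 285, 121 and 321 CPM in Gpr17-high cells. Its log2 difference of -0.67 (SE 0.10) and that of the receptor phosphatase Ptprz1 (-0.45, SE 0.08) had adjusted p-values of 7.99e-05 and 0.000242 by edgeR but were under 2-fold. Both genes were called lower with at least 10 UMIs of Gpr17 (Cspg4 -1.88, Ptprz1 -1.04) and without cells holding markers of another cell type. Ptprz1 was still at 2577, 3234, 2534 and 2926 CPM in Gpr17-high cells.

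Egfr, the receptor for epidermal growth factor, fell by 2.81 on the log2 scale (SE 0.19), from 99.6, 82.8, 59.5 and 105 CPM in resting precursors to 11.4, 19.8, 5.75 and 12.9 CPM. Every library of Gpr17-high cells was below every library of resting precursors. Draxin, a secreted axon guidance protein, fell by 2.40, Grb10, an adaptor that dampens growth factor receptor signalling, by 1.98, Sncaip by 1.88, Arap2 by 1.85, the intermediate filament gene Nes by 1.76, Creb5 by 1.75, Nkain3 by 1.72 and Rasl11a by 1.69. The calls of Draxin, Arap2, Nes and Nkain3 were lost without the library block. That of Nkain3 was also lost in the replicate 2 libraries alone, and that of Rasl11a with at least 3 UMIs of Gpr17. Over all alternatives, the smallest differences were -1.76 for Draxin, -1.32 for Arap2, -1.14 for Nes, -0.775 for Nkain3 and -0.881 for Rasl11a. The prostaglandin D synthase gene Ptgds had the largest fitted fall among called genes of at least 50 CPM that moved the same way in every library (-3.58, SE 0.49), but this rested on 366 CPM in the resting precursors of mutant replicate 2, against 11.6, 10.6 and 4.60 CPM in the others. Within the libraries of replicate 1 it was not called.

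Of 11 cell cycle genes tested, 5 were lower and none higher (median -1.0). Of these 5, 4 encode subunits of the MCM helicase that opens DNA for replication. Cells with a UMI of Mki67 or Top2a had been left out of both groups, but this limit misses more cycling cells at lower depth. Resting precursors were shallower, with a median of 8525.5 UMIs against 13969.5 in Gpr17-high cells. The part of cycling cells missed in this way was not tested. Mcm4 was at 24.9, 39.0, 23.3 and 30.6 CPM in resting precursors and at 9.91, 15.2, 9.13 and 11.7 CPM in Gpr17-high cells (-1.23, SE 0.21). Mcm4 fell short of the 2-fold limit with all gates set after thinning to 4000 UMIs and with at least 3 UMIs of Gpr17 required. The call of Mcm6 (-1.05) was lost in 6 of 18 alternatives. Among 12 genes of cell cycle exit, Cdkn1c, an inhibitor of cyclin-dependent kinases, was higher (35.6, 33.1, 23.9 and 43.8 CPM against 199, 188, 119 and 192 CPM, 2.35, SE 0.11). The G1 kinase Cdk6 (-1.86, SE 0.13) and the antiproliferative genes Btg2 (-1.55) and Btg1 (-1.01) were lower. Ccnd1, a cyclin of G1, differed by -0.91 (SE 0.14), just under the 2-fold limit.

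Of 13 inhibitors of differentiation, Hes1 (-1.09, SE 0.17) and Id2 (-1.02, SE 0.18), both repressors of the bHLH factors, were lower and none was higher. Both lie at the 2-fold limit, and the calls were lost in 5 of 18 alternatives for Hes1 and in 8 of 18 for Id2. In the BMP pathway, the ligand Bmp4 was higher and Bmp7 (-1.16, lost in 5 of 18 alternatives) and Id2 were lower among 17 genes tested. In the Wnt list, Tcf7l2 was the 1 gene called of 11. Among 8 G protein-coupled receptors tested, Adgrg1, a receptor of dividing OPCs, was lower (-1.25, SE 0.14), and receptors such as Lpar1 and S1pr5 did not pass the filter. The call of Adgrg1 was lost with at least 3 UMIs of Gpr17 and without the library block.

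Of the 21 cytoskeleton genes, Tubb4a (2.32), Map1b (1.95) and Fyn were higher and Stmn1 (-1.0) was lower. Among 17 genes of matrix and adhesion, Tnr, a matrix glycoprotein, was at 933, 440, 1038 and 279 CPM in resting precursors and at 2732, 1087, 3287 and 736 CPM in Gpr17-high cells (1.53, SE 0.08), with the replicate 2 libraries lower in both. The call of Tnr was lost without the library block, although its difference was at least 1.25 in every alternative. Neu4 and Ncam1 (1.02, lost in 8 of 18 alternatives) were also higher and Cntnap2 (-1.09) was lower. Of 20 genes for ion channels and transmitter receptors, the potassium channel Kcnd3 (-1.31) alone was called. Of 25 genes of sterol and lipid synthesis, only Gal3st1, which makes sulfatide, was higher (1.19, lost in 3 of 18 alternatives), and the cholesterol pathway gene Hmgcs1 was at 296, 626, 331 and 395 CPM and at 306, 442, 286 and 352 CPM (-0.17, SE 0.09, adjusted p = 0.202 by edgeR). Among 9 members of the CHD family, Chd3 was called higher (1.06, lost in 7 of 18 alternatives), while Chd8 differed by 0.07 (SE 0.11). Among 12 tested genes that the study names, Mbp was higher and Auts2 (-1.02) was lower.

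**Figure D2:**
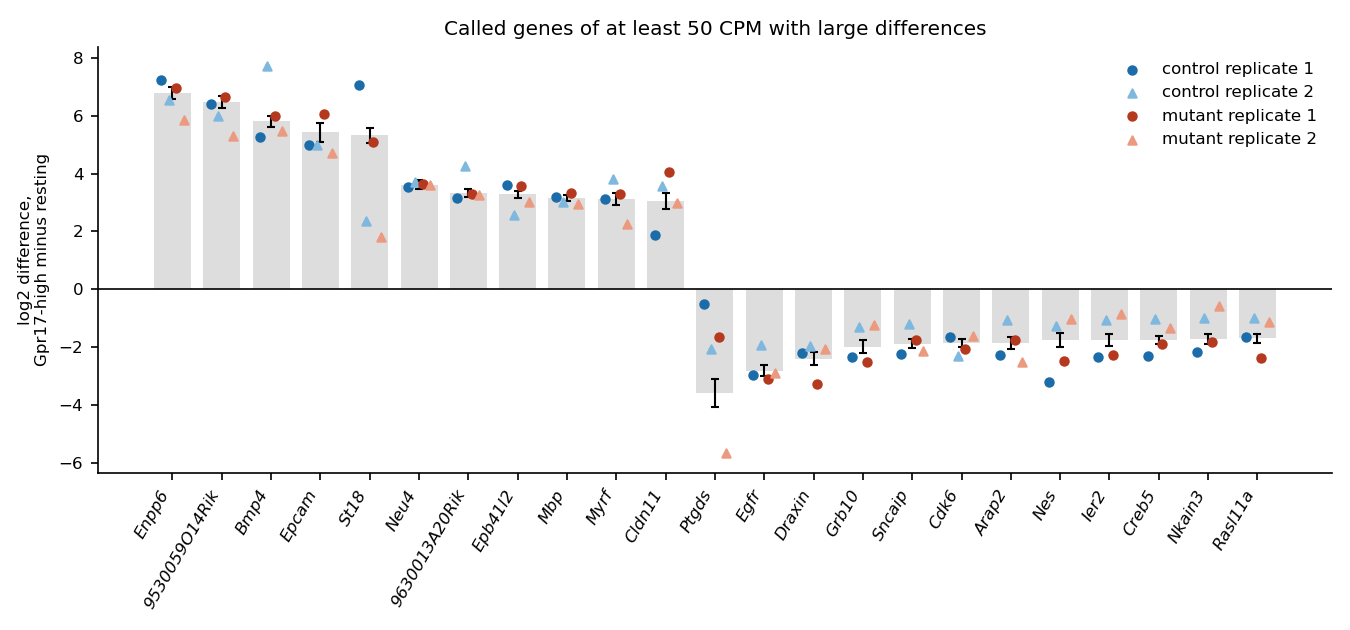
Log2 difference, Gpr17-high cells minus resting precursors, for called genes of at least 50 CPM with large differences. Grey bars show the fitted difference with its SE and points show each library. Enpp6 has the highest bar at 6.78 and Ptgds the lowest at -3.58. All points of a gene lie on the same side of 0 because the choice of genes required it.

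Some genes of other cell types and some stress and immediate early genes moved with this comparison. Of 9 stress and immediate early genes tested, 7 were lower in Gpr17-high cells (median -1.27), among them Egr1 (-1.41, lost in 2 of 18 alternatives) and Fos (-1.37, lost in 4 of 18), and both losses included the replicate 2 libraries taken alone. The summed level of the list was 1348, 1248, 911 and 1243 CPM in resting precursors and 351, 630, 279 and 830 CPM in Gpr17-high cells. All 5 tested fibroblast markers were lower (median -3.72). Their list summed to 265, 52.1, 3.16 and 427 CPM in resting precursors and to 5.34, 47.3, 5.07 and 14.1 CPM in Gpr17-high cells, so it was high in 2 resting libraries, with Col1a2 the most abundant gene there, while Col3a1 and Slc6a13 were at 0 in Gpr17-high cells. Pericyte and mural markers summed to 14.2, 155, 8.91 and 372 CPM in resting precursors and to 10.7, 133, 6.08 and 22.3 CPM in Gpr17-high cells, and 2 of the 3 tested were lower. When resting precursors with any Col1a1, Col1a2, Dcn or Vtn were left out, 542 genes were called and 526 of them were among the 570. The part of the immediate early genes in the other differences was not tested.

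The other cell types were represented as follows in Gpr17-high cells. Pan-neuronal markers summed to 958, 913, 776 and 1012 CPM, with Gap43 the most abundant at 203 CPM, and did not differ beyond the limits from resting precursors (0 of 10 called, median -0.33). Astrocyte markers summed to 304, 450, 252 and 632 CPM, with Slc1a2 the most abundant at 177 CPM, and 1 of 8 (F3) was lower than in resting precursors. Ependymal markers summed to 124, 10.7, 74.7 and 152 CPM, led by Tmem212, and to 70.2, 29.6, 7.19 and 62.0 CPM in resting precursors. Of 7 tested, 2 (Ccdc153 and Tmem212) were higher, but in control replicate 2 the list and Tmem212 (from 1.18 to 0 CPM) were lower. Inhibitory neuron markers summed to 129, 19.8, 67.3 and 35.2 CPM, excitatory neuron markers to 13.0, 48.8, 22.0 and 44.6 CPM and microglia markers to 18.3, 10.7, 79.1 and 18.8 CPM. Endothelial markers were at most at 3.05 CPM in any library, and Kdr, Ly6c1, Cdh5 and Tek were at 0. In all, 161 of the 390 cells (27, 31, 60 and 43) held at least 3 UMIs of some list of another cell type. Without such cells in either group, 989 genes differed from resting precursors in place of 570. Whether doublets or free RNA contribute was not tested.

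Against Mag-high oligodendrocytes, Gpr17-high cells had higher levels of most tested OPC genes and of many genes for ion channels and transmitter receptors, and lower levels of most tested myelin genes. Of 9924 genes tested in the same way, 1948 (19.6%) passed, 1335 (13.5%) higher and 613 (6.18%) lower in Gpr17-high cells, with a median difference of 0.03. With at least 10 counts required in every sum, more genes were lower (288) than higher (210). Both comparisons use the same sums of Gpr17-high cells, so they are not independent. In the Mag-high cells the gate gene Mog was at 53.3, 44.5, 92.3 and 34.6 CPM. Mobp, also a gate gene, was at 191 CPM in mutant replicate 1 and at 6.15, 2.62 and 6.29 CPM in the others. Opalin, which the gate did not use, was at 20.5, 2.62, 2.64 and 6.29 CPM.

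Of 15 myelin genes tested against Mag-high oligodendrocytes, 12 were lower and none higher (median -2.15). The groups were cut on Mag, Mobp and Mog in the same cells, so genes that vary with these had to differ. Mbp was at 5113, 5809, 4814 and 7074 CPM in the oligodendrocytes and thus 4.27 log2 units (SE 0.13) above its level in Gpr17-high cells. The genes of the committed stage were lower too in 14 of 21 cases, with none higher (median -1.51). Enpp6 was at 1607, 1820, 1467 and 1490 CPM in the oligodendrocytes (-2.82, SE 0.13) and Bcas1 at 4436, 3646, 3942 and 3803 CPM (-1.51, SE 0.12). For both, every library of Gpr17-high cells was below every library of oligodendrocytes. Bmp4 was at 496, 437, 537 and 611 CPM (-1.13, SE 0.14), a call that was lost in 6 of 16 alternatives. Neu4 was at 160, 170, 162 and 148 CPM (-0.74) and was not called, but it was called lower in 4 of 16 alternatives. Gpr17, which chose the cells, was at 385, 542, 437 and 616 CPM in the oligodendrocytes.

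The largest single difference among the named genes was in Lpar1, a receptor for lysophosphatidic acid, which was at 196, 175, 189 and 269 CPM in the oligodendrocytes and at 1.52, 1.52, 2.03 and 3.52 CPM in Gpr17-high cells (-5.94, SE 0.20). Also lower were Frmd4a, a scaffold of cell polarity (-4.01), the transcription factors Tcf7l2 (-2.0), Myrf (-1.99) and St18 (-2.77, lost without the library block), and Cdkn1c (-1.21, lost in 3 of 16 alternatives). The 12 named falls also included Cdk18, Ddc, Gm36988, Adamts4, Cnksr3, Parvb, Fhl2, Rassf10 and the connexin Gjc3. Among 23 transcription factors, 5 were lower and 3 higher.

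On the other side, 13 of 17 OPC genes were higher in Gpr17-high cells than in Mag-high oligodendrocytes (median 2.07) and none was lower. Cspg4 was at 1.03, 13.1, 0.439 and 3.14 CPM in the oligodendrocytes (5.36, SE 0.28) and the brain proteoglycan Cspg5 at 40.0, 75.9, 70.3 and 45.6 CPM against 897, 1010, 1005 and 1516 CPM (4.0, SE 0.15). The 12 named rises also held the acid-sensing channel Asic2 (5.13), the phosphodiesterase Pde7b (5.06), Sgcz (4.96), the cysteine dioxygenase Cdo1 (4.70), Zfp36l1, the adhesion protein Chl1 (4.58), Kcnip3, Gpr158, Sorcs3, the splicing factor Rbfox1 (4.29) and Masp1. Of 13 inhibitors of differentiation, 8 were higher, among them the Notch target Hes5 (3.04) and Id2 (2.49), and Sox2 was lower (-1.27). Sox9, a factor of glial progenitors, was at 108, 117, 111 and 211 CPM against 2.05, 5.24, 10.5 and 6.29 CPM (3.70, SE 0.24), and Ccnd1 rose by 2.85. Of 19 genes for ion channels and transmitter receptors, 12 were higher and Grik3 was lower (-1.01, lost in 9 of 16 alternatives). The GABA receptor subunit Gabra3 was at 56.4, 21.3, 62.2 and 25.8 CPM against 2.05, 0, 2.64 and 1.57 CPM (3.71, SE 0.31). The AMPA receptor subunit Gria1 was at 35.1, 13.7, 47.7 and 24.6 CPM and at only 3 UMIs in all oligodendrocytes. Of 6 tested receptors coupled to G proteins, Adora1, S1pr1 (2.34) and Adgrg1 (1.5) were higher and Lpar1 and Gpr62 were lower, and the call of Adgrg1 was lost with at least 10 UMIs of Gpr17.

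Markers of other cell types were also higher in Gpr17-high cells than in Mag-high oligodendrocytes. Of 8 astrocyte markers tested 7 were higher (median 2.02), of 8 pan-neuronal markers 7 were higher and Elavl3 was lower (median 1.80), and all 5 ependymal and both inhibitory neuron markers tested were higher. In the oligodendrocytes the astrocyte list summed to 39.0, 107, 58.9 and 116 CPM, with Aldoc the most abundant, and the pan-neuronal list to 486, 505, 469 and 596 CPM, with Elavl3 the most abundant at 349 CPM. The ependymal list summed to 2.05, 13.1, 4.39 and 9.43 CPM there. Of 8 stress and immediate early genes 4 were higher in Gpr17-high cells. The part of these markers in the other rises was not tested.

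Within the Gpr17-high cells, the markers of the label were split by Pdgfra, which the rule did not use. No UMI of Pdgfra was found in 173 cells, 37 cells held 1 or 2, and 180 held at least 3. Of the 173 cells without Pdgfra, 165 (95.4%) had Bmp4, 137 (79.2%) had Enpp6, 131 had both and 2 had neither. Of the 180 cells with at least 3 UMIs, 21 (11.7%) had Bmp4, 4 (2.22%) had Enpp6 and 157 had neither, while 142 (78.9%) had Bcas1. The 37 cells between them had Bmp4 in 33 and Enpp6 in 18 (48.6%). Cspg4 showed the reverse order, with 41 (23.7%) of the cells without Pdgfra and 172 (95.6%) of those with at least 3 UMIs. The cells without Pdgfra were deeper (median 16790 against 11560 UMIs) and held more Gpr17 (median 12 against 6 UMIs), so a zero for Pdgfra came from the deeper cells.

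Across single cells of a library (n = 86, 51, 187 and 66), the share of UMIs of Pdgfra was related inversely to that of Bmp4 (Spearman's rho between -0.865 and -0.748), Bcas1 (-0.832 to -0.705) and Enpp6 (-0.719 to -0.611) and directly to that of Cspg5 (0.772 to 0.903). Enpp6 and Bcas1 rose together (0.704 to 0.810). These values describe cells that share a library and are given without a test. Depth was related to these shares as well, from -0.636 to -0.226 for Pdgfra and from 0.181 to 0.618 for Bmp4. No such value is given for Gpr17, because its minimum of 5 UMIs ties its share to depth (-0.602 to -0.150).

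**Figure D3:**
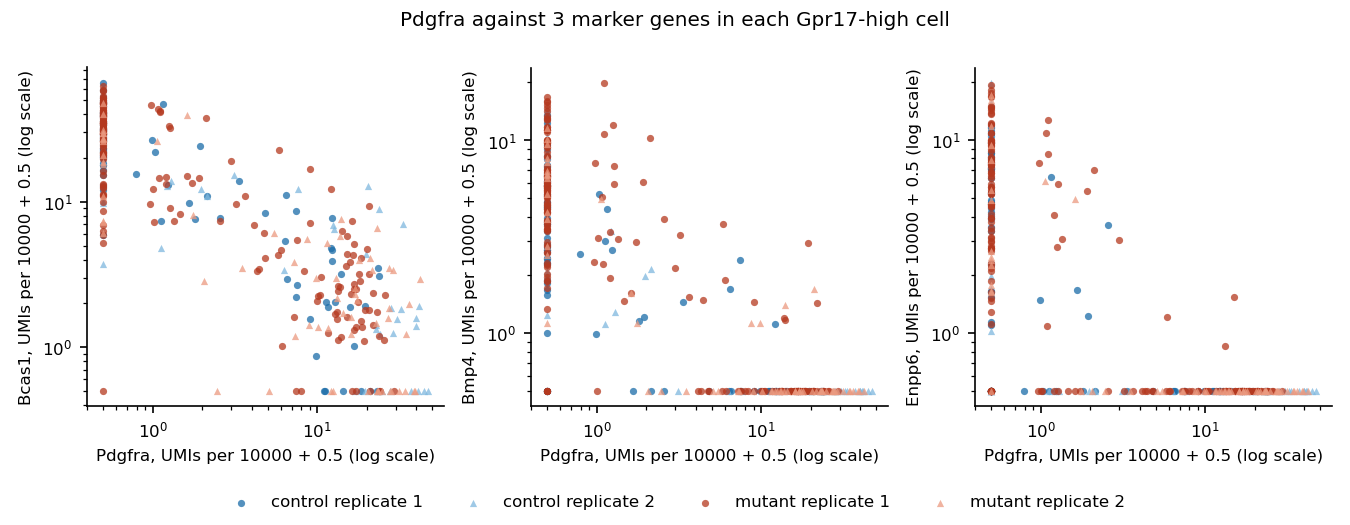
UMIs per 10000 (plus 0.5, log scales) of Bcas1, Bmp4 and Enpp6 against Pdgfra, with 1 point per Gpr17-high cell and a color per library. Cells without Pdgfra form the column at the left edge of each panel and carry most of the Bmp4 and Enpp6, and cells of all 4 libraries lie at both ends.

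Summed per library, cells without Pdgfra and cells with at least 3 UMIs differed in 1285 of 8404 genes tested (15.3%), with 376 (4.47%) higher and 909 (10.8%) lower in the cells without Pdgfra. The split was made on Pdgfra in the same cells, so genes that vary with it had to differ, and Pdgfra was left out. Enpp6 was at 0, 0, 6.74 and 0 CPM in the cells with Pdgfra and at 403, 483, 568 and 610 CPM in those without (log2 difference 6.55, SE 0.30). Bmp4 was at 15.2, 9.69, 31.8 and 7.58 CPM and at 381, 521, 608 and 569 CPM (4.70, SE 0.22). In the cells with Pdgfra, Bcas1 was at 328, 313, 345 and 191 CPM, against 245, 188, 227 and 173 CPM in resting precursors, and it was at 3096, 2438, 3268 and 2502 CPM in those without (3.37, SE 0.15). The 4 libraries of each side were separate for all 3 genes.

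Of 19 tested genes of the committed stage, 13 were higher in the cells without Pdgfra and none was lower. Of 12 myelin genes, 8 were higher, with Mbp at 556, 469, 571 and 1047 CPM against 35.4, 32.3, 54.9 and 49.3 CPM (3.86, SE 0.18). The transcription factors St18 (5.66), Myrf (2.94), Tcf7l2 (1.95) and Nkx2-2 (1.58), the kinase inhibitor Cdkn1c (3.0), and the 9530059O14Rik transcript (5.13), Epcam (4.70), Epb41l2 (4.31), Cldn11 (3.98), 1700047M11Rik (3.46) and 9630013A20Rik (3.32) were also higher. As given above, the level of St18 in Gpr17-high cells was far lower in both libraries of replicate 2. Id1, a BMP target, was the inhibitor of differentiation that was higher (1.48, SE 0.50), but in mutant replicate 2 it was at 20.8 CPM in the cells with Pdgfra and 14.7 CPM in those without.

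Of 17 tested OPC genes, 10 were lower in the cells without Pdgfra and none was higher. Cspg5 was at 2342, 1919, 2564 and 2301 CPM in the cells with Pdgfra and at 235, 162, 129 and 147 CPM in those without (-3.69, SE 0.17), and Cspg4 differed by -3.94. Of 13 inhibitors of differentiation, 6 were lower, with Hes1 at 63.2, 80.8, 112 and 56.9 CPM against 6.66, 6.90, 6.15 and 0 CPM (-3.36, SE 0.31), and Sox9 (-2.85) and Ccnd1 (-1.99) were lower too. Of 19 ion channel and transmitter receptor genes, 12 were lower and none was higher, among them Gria1 at 104, 29.1, 107 and 39.8 CPM against 2.67, 0, 16.6 and 0 CPM (-2.94, SE 0.34) and Kcnd3 (-2.87). The adenosine receptor Adora1 was lower by 3.23 log2 units. The largest falls of the named genes with counts on both sides were Inpp4b, a lipid phosphatase (-5.16), the collagen gene Col19a1 (-4.79), Fstl5 (-4.45), Adamts9 (-4.44), March1 (-4.30) and Rasl11a (-4.26). Sterol and lipid genes showed no call among 25. Sox10 (0.32, SE 0.12) and Chd8 (0.22, SE 0.18) were not called.

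Markers of other cell types and of stress moved with this split too. Of 9 pan-neuronal markers tested 6 were lower in the cells without Pdgfra (Snap25, Celf4, Syt1, Elavl4, Tubb3 and Stmn2, list median -1.09). The list summed to 1352, 1182, 1108 and 1224 CPM in the cells with Pdgfra, with Dcx the most abundant, and to 690, 638, 568 and 669 CPM in those without, with Gap43 the most abundant. Of 8 astrocyte markers Slc1a2 and F3 were lower, and the list summed to 275, 588, 348 and 949 CPM in the cells with Pdgfra and to 369, 376, 225 and 114 CPM in those without. The 1 inhibitory neuron marker tested, Gad1, was lower. The ependymal list summed to 5.05, 19.4, 2.89 and 239 CPM in the cells with Pdgfra and to 208, 3.45, 132 and 7.35 CPM in those without, so it was higher without Pdgfra in both libraries of replicate 1 and lower in both of replicate 2, and none of its 4 tested genes was called. Egr1 and Jun were lower among 7 stress and immediate early genes, and that list summed to 571, 646, 506 and 1243 CPM and to 244, 700, 157 and 147 CPM. The part of these markers in the differences of the OPC and channel genes was not tested.

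Set beside their neighbours, the cells with Pdgfra were nearer to resting precursors in several of these levels and the cells without Pdgfra lay toward the Mag-high oligodendrocytes. In the order resting, Gpr17-high with Pdgfra, Gpr17-high without Pdgfra and Mag-high, mean levels were 2113, 2281, 168 and 58.0 CPM for Cspg5, 449, 401, 104 and 26.2 CPM for Ccnd1, 88.9, 121, 448 and 1066 CPM for Tcf7l2 and 6.24, 13.4, 102 and 225 CPM for Myrf. Egfr also descended, at 86.7, 16.7, 6.66 and 2.40 CPM, but its lower level was already seen in the cells that retained Pdgfra. Gpr17 was at 56.1, 578, 889 and 495 CPM. The 4 groups were cut on Gpr17, Pdgfra and the myelin genes, so this order is a description.

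**Figure D4:**
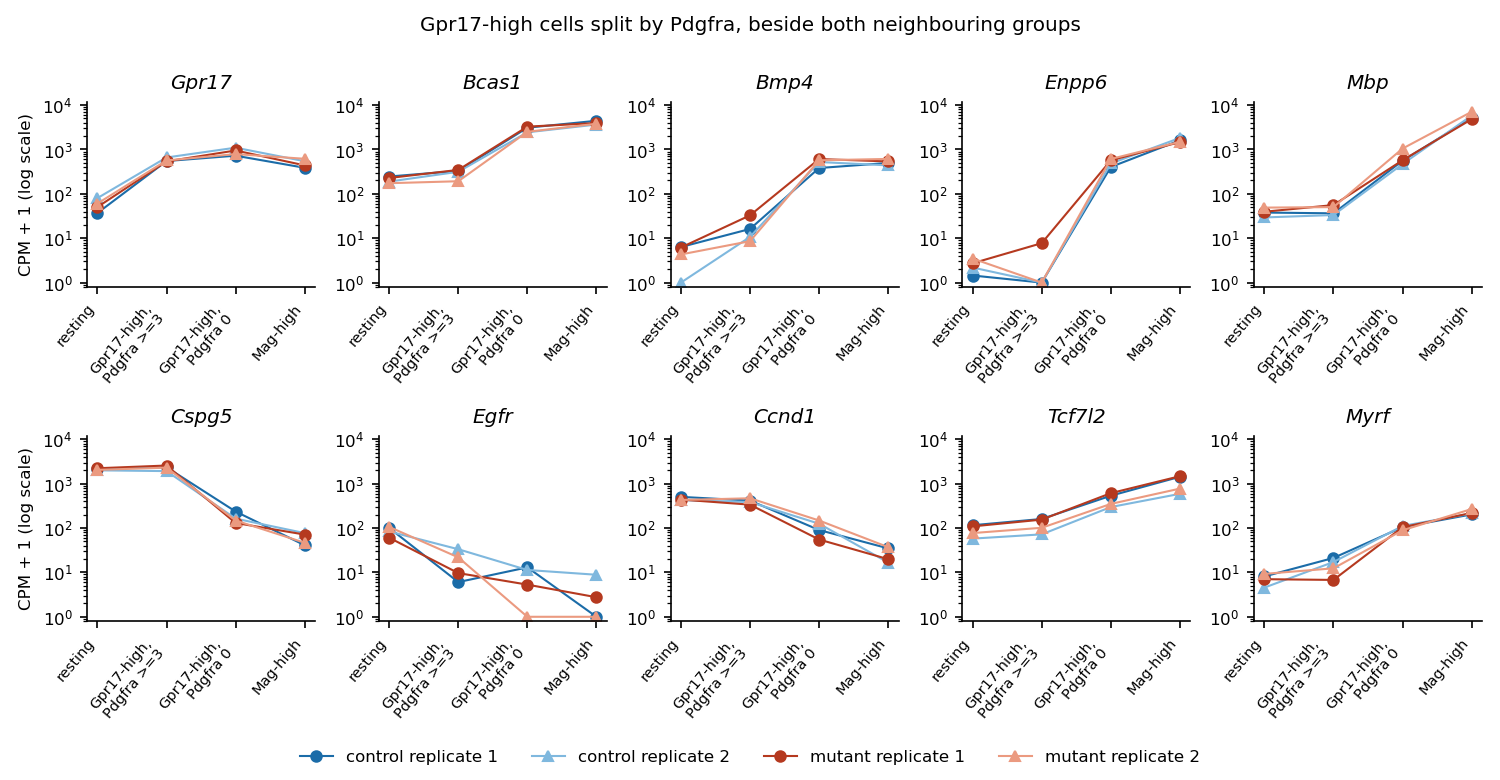
Level (CPM + 1, log scale) of 10 genes in resting precursors, Gpr17-high cells with at least 3 UMIs of Pdgfra, Gpr17-high cells with none, and Mag-high oligodendrocytes, with 1 line per library. Bcas1, Bmp4, Enpp6 and Mbp step up, and Cspg5 and Ccnd1 step down, between the 2 kinds of Gpr17-high cells in every library, whereas Egfr falls before that step.

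The share of Gpr17-high cells was next compared between genotypes. They made up 1.51% of kept cells in control replicate 1 (95% Clopper-Pearson interval 1.21% to 1.86%), 1.72% in control replicate 2 (1.28% to 2.25%), 3.3% in mutant replicate 1 (2.85% to 3.80%) and 2.01% in mutant replicate 2 (1.56% to 2.55%). The intervals cover counting error only. The mean was 1.61% ± 0.148 (SD, n = 2) in control and 2.66% ± 0.914 (SD, n = 2) in mutant libraries, a difference of 1.05 percentage points. Both mutant libraries were above both control libraries, but with 2 libraries against 2 the exact two-sided permutation test gave p = 0.333, the smallest value it allows. The difference was 1.80 points within replicate 1 and 0.296 points within replicate 2, and without mutant replicate 1 it was 0.401 points. It was 0.526 points with at least 10 UMIs of Gpr17 required and 0.620 points without cells that held markers of another cell type, and under both the genotypes overlapped. It was 1.51 points with a mitochondrial limit of 5%, 1.26 points with gates set after thinning and 1.59 points with at least 3 UMIs of Gpr17 required, and under these 3 settings the genotypes were separate, again at p = 0.333 by the exact permutation test.

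As a share of the cells in the 3 gates together (Gpr17-high cells, resting precursors and Mag-high oligodendrocytes, 342, 192, 653 and 264 cells, with cycling cells and cells between the gates left out), Gpr17-high cells were at 25.1%, 26.6%, 28.6% and 25%, with means of 25.9% ± 1.0 (SD, n = 2) in control and 26.8% ± 2.57 (SD, n = 2) in mutant libraries. The groups overlapped, and the difference of 0.964 percentage points had p = 1 by the exact two-sided permutation test. It was 3.49 points within replicate 1 and -1.56 points within replicate 2, and -0.854 points without mutant replicate 1. With a mitochondrial limit of 5% it was 6.54 points, with the genotypes separate (p = 0.333 by the exact permutation test, the smallest it allows) and 10.5 points within replicate 2. The share of Gpr17-high cells without Pdgfra was 53.5%, 33.3%, 50.8% and 22.7%, so it varied more with the replicate number than with genotype (mutant minus control -6.65 points, exact permutation p = 0.667).

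**Figure D5:**
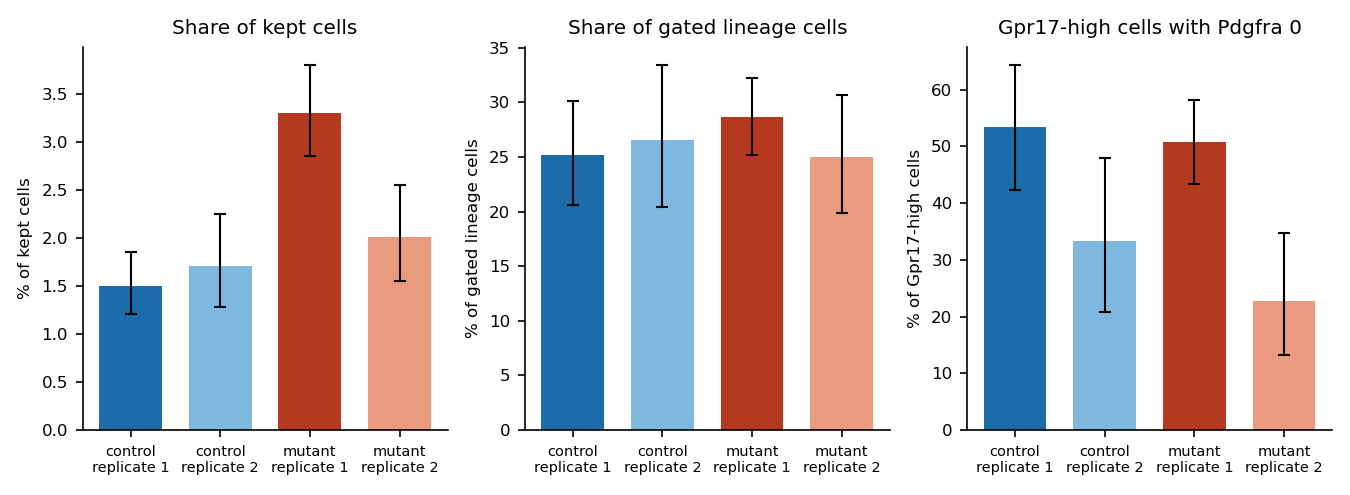
Gpr17-high cells as a percentage of kept cells (left) and of the cells in the 3 gates together (middle), and the percentage of Gpr17-high cells without Pdgfra (right), with 1 bar per library and exact 95% intervals for counting error. In the left panel the mutant replicate 1 bar stands at 3.3% and the others at 1.51% to 2.01%. In the right panel both replicate 1 bars, at 53.5% and 50.8%, exceed both replicate 2 bars, at 33.3% and 22.7%.

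Expression in Gpr17-high cells was then compared between mutant and control libraries. Chd8 (chr14:52198151-52257780, minus strand) was at 64.0, 102, 79.1 and 124 CPM, with a log2 difference of 0.28 (SE 0.37, adjusted p = 1.0 by edgeR) and within-replicate differences of 0.33 and 0.25. Its difference was -0.017 without mutant replicate 2 and also just below 0 without control replicate 1. The 3′ counts do not resolve the loxP-flanked part, so this level does not check the genotype. None of 9890 genes tested passed the adjusted p of 0.05 (0%), with 16 genes at an unadjusted p under 0.05 by edgeR and, by DESeq2, no gene called and 5 at an unadjusted p under 0.05. The replicates differed widely in this fit (common dispersion 0.163, against 0.0174 once the replicate number was a block). The list medians of mutant minus control were 0.11 for the 21 committed stage genes, 0.06 for 18 OPC genes and 0.30 for 12 myelin genes, against 0.02 for all genes.

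The genes with the smallest p among those that moved the same way in both replicates are given as values. Gfap, an astrocyte filament, was at 1.52, 3.05, 16.9 and 15.2 CPM (log2 difference 2.32, SE 0.66). Csad, an enzyme of taurine synthesis, was at 35.1, 30.5, 57.8 and 73.9 CPM (0.96, SE 0.29). Ift122, a transport protein of cilia, was at 3.81, 6.10, 14.2 and 25.8 CPM (1.75, SE 0.61). In these 3 genes both mutant libraries lay above both controls. Gm42047 was at 47.3, 41.2, 21.0 and 12.9 CPM (-1.27, SE 0.40), and the linker histone gene Hist1h1e was at 149, 213, 84.5 and 36.4 CPM (-1.51, SE 0.50), with both mutant libraries below both controls. Gfap belongs to the astrocyte markers, whose summed level of 304, 450, 252 and 632 CPM did not separate the genotypes.

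With the replicate number as a block, 9 genes (0.091%) passed: Hist1h1e (-1.45, adjusted p = 1.51e-07 by edgeR), Gm42047 (-1.25), Rgs5 (-2.33) and mt-Atp8 (-1.19) were lower in mutant libraries and Gfap (2.37), Unc13c (1.69), Mitf (1.46), AC149090.1 (1.18) and Tmem108 (1.04) were higher. The block leaves 1 residual degree of freedom per gene, and several of these calls rest on 1 library. Rgs5, a pericyte gene, was at 0.762, 91.5, 0.338 and 11.7 CPM, mt-Atp8 at 16, 493, 42.9 and 57.5 CPM and Unc13c at 16.8, 15.2, 80.4 and 18.8 CPM. In Tmem108 (159, 42.7, 318 and 92.6 CPM) and Mitf (29.0, 3.05, 82.8 and 8.21 CPM), the difference between replicate numbers exceeded that between genotypes, but the genotype differences within replicates 1 and 2 were alike, at 1.02 and 1.06 for Tmem108 and at 1.5 and 1.08 for Mitf. They were 2.20 and 0.25 for Unc13c, -0.31 and -2.85 for Rgs5 and 1.38 and -3.10 for mt-Atp8, which thus moved in opposite directions. In the fit without the block, leaving out 1 library compares unequal replicate numbers, and there mt-Atp8 changed sign without control replicate 2 (1.52) and Mitf (-0.97) and Tmem108 (-0.22) without mutant replicate 1.

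Whether the genotype difference in Gpr17-high cells differed from that in resting precursors was tested as the interaction of group and genotype. No gene of 11167 passed (0%), with 324 at an unadjusted p under 0.05 by edgeR and, by DESeq2, none called and 19 under 0.05. With a library left out, 6 genes passed without control replicate 1, 12 without control replicate 2, 34 without mutant replicate 1 and 24 without mutant replicate 2. The smallest p belonged to Dnah12, a dynein of motile cilia (interaction 4.40, SE 0.91, adjusted p = 0.0784 by edgeR), at 8.39, 0, 12.2 and 18.8 CPM in Gpr17-high cells and 24.0, 1.18, 0.288 and 1.65 CPM in resting precursors. Dnah12 passed in 7 of 11 alternatives, among them the mitochondrial limit of 5% and both other gates for resting precursors, and its interaction lay between 3.90 and 5.99. Next were Rgs5 (-2.69), the ependymal gene Tmem212 (3.28), Ptgds (-3.88) and Mctp1 (2.20), with adjusted p-values of 0.174, 0.277, 0.277 and 0.590 by edgeR. Rgs5 passed in 4 of 12 alternatives and changed sign in 2. Tmem212 passed in 3 of 11, Ptgds in 3 of 13 and Mctp1 in 3 of 14. The interaction of Ptgds ran from -4.78 to -0.723, and its level was 366 CPM in the resting precursors of mutant replicate 2 against 11.6, 10.6 and 4.60 CPM in the others. Dnah12 and Tmem212 are genes of ciliated ependymal cells and Rgs5 of pericytes, whose summed levels moved between libraries as given above. The interaction for Chd8 was 0.10 (SE 0.22).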

How the data were processed

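Single-cell RNA sequencing (Chromium 3′ chemistry) was done on sorted tdTomato-positive cells, with 4 libraries and an input of 5000 cells each. The authors aligned reads to mm10 and deposited raw UMI counts per gene and barcode. The submitters' processing notes name Cell Ranger 3.0, the study's methods 7.0.0 for all libraries, and the headers 7.0.0 and 5.0.1. Version 7 of this software counts intronic reads by default and version 5 does not, and the setting used was not given in the sources used here. Of 32285 gene IDs, 99.61% were found in GENCODE vM21, which gave positions.

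Cells were gated on raw UMIs as stated above, in Python 3.11.15 with numpy 2.4.6, pandas 2.3.3 and scipy 1.17.1, and plotted with matplotlib 3.10.9. No doublet caller was run. The sort had gated doublets by scatter, which does not remove cells that share a droplet. An alternative left out cells with 3 or more UMIs of another cell type's markers. Any pair of libraries shared at most 0.291% of barcodes. The members and gene lists were chosen with earlier results of these data known, so that no list is independent evidence.

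Counts were summed per library and group, passed through filterByExpr, normalized by TMM and compared by the quasi-likelihood test of edgeR 4.0.16 (limma 3.58.1, R 4.3.3, prior count of 2), with Benjamini-Hochberg adjustment over all genes of a comparison. Stage comparisons had the library as a block and a limit of 2-fold, and the genotype comparison had no block. Libraries of the same replicate number shared the software version in their headers, and the replicate deviations of control and mutant correlated across genes (Pearson's r = 0.761, 9890 genes, which are not independent). DESeq2 1.42.0 was an alternative. The scripts were tested on simulated data. Without a block, p-values measure the spread between pooled libraries. With the library as a block, as in the Pdgfra split and the interaction too, they measure how differences within libraries vary between libraries. Shares were compared by exact permutation over libraries.

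Any gene of the 30 lists could be named, and in each stage comparison also up to 12 called genes with the largest rise and 12 with the largest fall, at 50 CPM or more and moved the same way in every library. For genotype and the interaction, the 5 genes with the smallest unadjusted p were named where none was called. For both, these were taken among genes whose difference had the same sign in both replicates. Genes called under the replicate block were named after their values were seen. Some genes that meet this rule are not reported here, though they remain in the counts.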

Additional observations from a re-analysis of the deposited data

Results flagged for a closer look

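Outside the cell filters, 22 barcodes met the Gpr17 gate, which is a signal in data that no comparison above used. They were 1, 9, 1 and 11 barcodes of the 4 libraries, out of 1511, 3134, 1476 and 3998 barcodes that failed the filters (10119 in all), and 21 of them were over the mitochondrial limit.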

How the results depend on the processing

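Gene counts depended mostly on which cells were summed, on the filter and on the library block. The 570 genes against resting precursors became 295 with at least 3 UMIs of Gpr17 required, 1311 with at least 10, 989 without cells holding markers of another cell type, 223 with at least 10 counts in every sum, 133 without the library block, 923 in the replicate 1 libraries alone and 238 in the replicate 2 libraries alone, and leaving out each library gave 399 to 747. The 1948 genes against Mag-high oligodendrocytes became 1131 with at least 10 UMIs of Gpr17, 1129 without cells holding other markers, 498 with at least 10 counts in every sum and 1265 without the library block (1715 to 2038 with a library left out). The 1285 genes between the Pdgfra groups became 785 without cells holding other markers, 250 with at least 10 counts in every sum, 666 without the library block and 813 in replicate 2 (942 to 1445 with a library left out). Library totals in place of TMM moved the median of all genes against Mag-high oligodendrocytes from 0.03 to 0.22 and the higher share of calls from 68.5% to 76.5%.

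For genotype, no filter on low counts gave 4 genes and the replicate block, which pairs the libraries by number, gave 9. For the shares the block gives the same difference by construction (1.05 points for kept cells, exact permutation p = 0.5, the smallest a pair of differences allows). With a library left out, the difference in the share of kept cells was 0.401 to 1.69 points and that in the share of lineage cells -0.854 to 2.78 points, and the latter reversed to -0.555 points with at least 3 UMIs of Gpr17 and to -2.475 points without cells holding other markers. With a library left out, the genotype difference of Chd8 ran from -0.017 to 0.593, that of Mitf from -0.97 to 3.52, that of Tmem108 from -0.22 to 2.29 and that of mt-Atp8 from -3.25 to 1.52, and that of Tmem108 was -0.20 after thinning. The interaction of Rgs5 became 1.25 after thinning and 0.41 with at least 3 UMIs of Gpr17. The interaction, with no gene called, gave 2 genes at a mitochondrial limit of 5%, 2 after thinning, 1 with at least 10 UMIs of Gpr17, 1 with resting precursors at 0 UMIs of Gpr17, 1 with resting precursors lacking Col1a1, Col1a2, Dcn or Vtn (an alternative chosen after the data were seen), 12 without a filter and 6 to 34 with a library left out. The causes were not tested.

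Over the genes named in the text, 889 of 963 calls against resting precursors, 646 of 672 against Mag-high oligodendrocytes and 468 of 478 between the Pdgfra groups stayed on their side of the limits, and none reversed. The Pdgfra groups with at least 10 UMIs of Gpr17 were not run, because too few libraries had 10 cells on each side, and used 3 libraries under the mitochondrial limit of 5% and without cells holding other markers.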
